A study of Mus musculus with 6 samples.

Results

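The interleukin-1 and interleukin-36 family ligands were taken as 9 genes fixed by name: Il1a, Il1b, Il1rn, Il1f6, Il1f8, Il1f9, Il1f5, Il18 and Il33. The array held 12 probe sets annotated to exactly 1 of these genes, of 34945 probe sets with 1 gene, and all 9 genes passed the intensity filter that 13214 genes passed in all. Il1f6, Il1f8 and Il1f9 encode IL-36 alpha, beta and gamma, and Il1f5 encodes the IL-36 receptor antagonist. The cells were tumour epithelial cells of chemically induced, benign skin papillomas of mice, sorted as alpha6 integrin-positive and Epcam-positive cells after exclusion of cells carrying CD45, CD31 or CD140a. They were compared between 3 arrays of control mice (CTRL) and 3 arrays of K14CREER:SOX2fl/fl mice (Sox2cKO), and tamoxifen was given over 1 week to both groups. The keratin 14 promoter limits the Cre recombinase of the Sox2cKO line to keratinocytes, where tamoxifen activates it to delete Sox2. The labels name the controls only as control mice and say nothing of age or of how many mice or tumours stand behind an array. The arrays came from 3 biological experiments by the design text, and where samples of a group came from 1 source the p-values measure only the spread between these arrays.

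IL-1 family cytokines are alarm signals of the epidermis. Keratinocytes keep IL-1 alpha, IL-18 and IL-33 as stored precursors that reach other cells after injury, whereas IL-1 beta and IL-18 are cut to their active form by caspase-1 in the inflammasome. IL-1 alpha and beta act through IL1R1, the IL-36 cytokines through IL1RL2, and IL-33 through IL1RL1, each together with the shared chain IL1RAP. IL-18 has its own receptor pair, and IL1RN and the IL-36 receptor antagonist occupy their receptors without signalling. In skin the family recruits neutrophils and drives chemokine and antimicrobial genes, and excess IL-36 activity is a feature of pustular psoriasis.

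The values are log2 expression values per probe set, whose size depends on the probes, so they are compared between arrays and not between genes. Array medians lay between 5.42 and 5.46, the 40th percentile used as the intensity filter between 4.90 and 4.95, and bacterial control probe sets without added RNA between 3.34 and 3.41. Of the sort markers, the alpha6 integrin gene Itga6 read 12.17 ± 0.07 in controls and 12.26 ± 0.19 in Sox2cKO arrays, and Epcam 11.31 ± 0.20 and 10.85 ± 0.35, a difference of -0.46 with an unadjusted p of 0.0561 in limma. Pdgfra (CD140a), a marker of excluded cells, read 5.30 ± 0.24 and 6.32 ± 0.89, a difference of 1.02 with an unadjusted p of 0.0396 in limma (SD, n = 3 each). The adjusted p of both was 0.999 in limma, and their part in the ligand readings was not tested. Sox2 read 7.19 to 8.31 in controls and 3.23 to 4.63 in Sox2cKO arrays. Its unadjusted p was 2.39e-05 and its adjusted p 0.316 in limma, which fits 1 linear model per gene and shares the estimate of the spread between genes. Control replicates 2 and 3 read 12.03 and 11.85 for Xist, the RNA of the inactive X chromosome of females, and the other 4 arrays read 6.08 to 7.54. Control replicate 1 was thus the only control with the low Xist reading of the Sox2cKO arrays, and the sex pattern and the genotype are partly confounded.

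Of the 9 ligand genes 0 passed an adjusted p of 0.05 in limma, where 0 of all 13214 genes passed, or 0%. At an unadjusted p under 0.05 there were 0 ligand genes and 353 genes in all (2.67%). The ligand genes were higher in Sox2cKO in 5 cases and lower in 4 by the group means, with a median log2 difference of 0.045 beside 0.0027 over all genes tested. The smallest adjusted p among them was 0.999. The 95% interval of the difference held 0 for each of the 9 genes. These intervals were wide, reaching from -0.99 to 2.29 for Il1f5 and from -1.24 to 1.81 for Il33. Changes within these limits could thus not be excluded with 3 arrays a group.

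**Figure D1:**
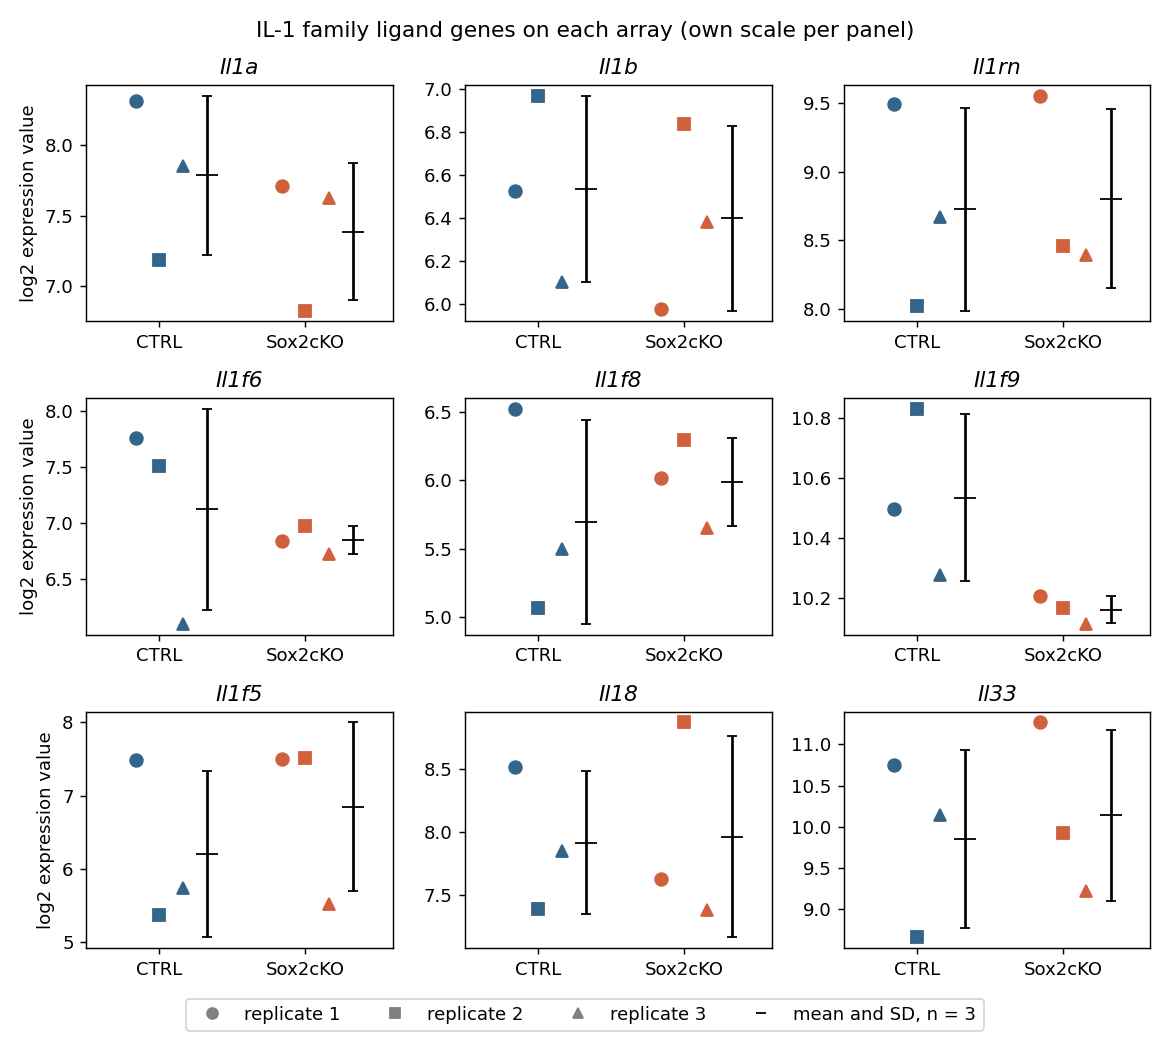
Log2 expression value of each ligand gene on each of the 6 arrays, with 1 panel and 1 scale per gene; symbols mark the replicate number and black bars the mean ± SD of 3 arrays. In Il1f9 alone the 3 Sox2cKO arrays, between 10.11 and 10.21, lie below all 3 control arrays, between 10.28 and 10.83.

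Promoter windows of 300 bases, from 250 before to 50 after an annotated RefSeq start in build GRCm38.p6, were matched for 8 of the 9 genes and searched for 4 short motifs. They were an NF-kB half-site form (GGGANTT, N standing for any base), an AP-1 form (TGANTCA) and a SOX core (ACAAAG), all on both strands, and TATAAA on the forward strand. The 5 windows printed here belong to the gene whose groups did not overlap (Il1f9), to the pair Il1f5 and Il1f8, whose readings were high in the same arrays, and to Il1rn and Il33, which ranked the 6 arrays alike. Where a gene had several starts the one farthest upstream is shown. All lie on the plus strand, Il1f9 at chr2:24186226-24186525, Il1f5 at chr2:24276704-24277003, Il1f8 at chr2:24152922-24153221, Il1rn at chr2:24336610-24336909 and Il33 at chr19:29924863-29925162. Capitals mark the motif matches.
Il1f9: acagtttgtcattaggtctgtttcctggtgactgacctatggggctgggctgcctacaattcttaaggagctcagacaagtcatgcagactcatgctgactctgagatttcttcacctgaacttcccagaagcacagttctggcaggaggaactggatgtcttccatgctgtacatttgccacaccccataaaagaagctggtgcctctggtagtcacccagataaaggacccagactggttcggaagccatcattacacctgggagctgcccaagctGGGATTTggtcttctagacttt
Il1f5: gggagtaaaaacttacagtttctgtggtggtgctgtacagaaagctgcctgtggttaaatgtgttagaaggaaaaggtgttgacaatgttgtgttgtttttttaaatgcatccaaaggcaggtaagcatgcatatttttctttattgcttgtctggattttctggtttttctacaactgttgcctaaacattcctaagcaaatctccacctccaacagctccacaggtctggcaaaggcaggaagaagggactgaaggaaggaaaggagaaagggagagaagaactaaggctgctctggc
Il1f8: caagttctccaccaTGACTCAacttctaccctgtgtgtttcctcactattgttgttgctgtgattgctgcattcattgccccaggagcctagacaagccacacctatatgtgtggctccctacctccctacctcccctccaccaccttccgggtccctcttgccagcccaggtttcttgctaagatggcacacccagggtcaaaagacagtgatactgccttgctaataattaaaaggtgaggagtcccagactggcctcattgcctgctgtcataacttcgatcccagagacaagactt
Il1rn: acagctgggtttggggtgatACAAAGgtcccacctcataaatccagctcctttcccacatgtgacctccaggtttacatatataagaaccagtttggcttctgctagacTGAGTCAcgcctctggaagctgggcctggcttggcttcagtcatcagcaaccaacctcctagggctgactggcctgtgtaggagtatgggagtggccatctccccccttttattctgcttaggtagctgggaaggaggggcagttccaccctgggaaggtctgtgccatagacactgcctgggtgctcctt
Il33: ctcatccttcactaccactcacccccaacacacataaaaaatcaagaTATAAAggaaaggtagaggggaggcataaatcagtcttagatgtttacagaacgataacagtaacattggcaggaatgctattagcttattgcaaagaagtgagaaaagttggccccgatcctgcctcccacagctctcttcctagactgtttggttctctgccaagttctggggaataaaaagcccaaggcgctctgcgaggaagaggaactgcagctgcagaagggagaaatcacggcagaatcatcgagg

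The Il1f5 window held none of the 4 motifs, and that of Il1f9 held 1 NF-kB form, which begins at base 29 of the transcript. The Il1f8 window held 1 AP-1 match 236 bases before the start, and that of Il1rn held an AP-1 match 141 bases before the start and a SOX match 230 bases before it. Il33 held TATAAA 203 bases before this start, and at its other annotated start 29 bases before it. Il1a, whose window is not printed, held TATAAA 32 bases and TGACTCA 12 bases before the start. Counting every start of the 8 matched genes, AP-1 was found in 3 genes, TATAAA in 3, the NF-kB form in 3 and the SOX core in 2. Counted in the same way over every start of 27025 genes, the AP-1 form was in 8.97% of genes, TATAAA in 9.77%, the SOX core in 21% and the NF-kB form in 18.7%. Of the 32851 single windows of that length the shares were 7.81%, 8.32%, 18.7% and 16.5% in that order. A match describes letters in this window only, and no matches overlapped in the printed windows.

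Il1a, the gene of the stored alarm cytokine IL-1 alpha, read 8.32, 7.19 and 7.86 in control replicates 1 to 3 and 7.71, 6.82 and 7.63 in Sox2cKO replicates 1 to 3. The groups overlapped through control replicate 2, the lowest control, which read below 2 of the Sox2cKO arrays. The log2 difference was -0.40 with a standard error of 0.34 (adjusted p = 0.999 in limma). Arrays of the same replicate number deviated together across genes, and with the number as a block Il1a had an unadjusted p of 0.0217, with all 3 same-numbered differences below 0 (-0.61, -0.36 and -0.23). Its adjusted p was then 0.942, the smallest of the ligand genes, so the call did not change. The block moved the number of genes at an unadjusted p under 0.05 from 353 to 656, and of ligand genes from 0 to 2, Il1a and Il1f9. Without Sox2cKO replicate 2 the difference of Il1a was -0.12.

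Il1b, which encodes the cytokine that caspase-1 matures, read 6.53, 6.97 and 6.11 in controls and 5.98, 6.84 and 6.38 in Sox2cKO arrays. The 3 values of each group spanned nearly the same range, and replicate 2 was the highest in both. The difference was -0.13 with a standard error of 0.28 on the log2 scale. Leukocytes make much of the IL-1 beta of inflamed skin, and their defining markers read at different levels. Near the filter level were the CD45 gene Ptprc, at 4.69 to 5.15 in controls and 4.58 to 5.51 in Sox2cKO arrays, and the Langerhans cell gene Cd207, at 4.81 to 5.18 and 4.96 to 5.18. Above it in all 6 arrays were the macrophage gene Csf1r (6.87 ± 0.09 and 6.94 ± 0.04) and the neutrophil gene Csf3r (5.66 ± 0.23 and 5.67 ± 0.13). The T cell gene Cd3e also read above it, at 5.89 ± 0.05 and 5.88 ± 0.16 (SD, n = 3 each), whereas the mast cell gene Cpa3 did not pass the filter. Only 2 of 8 T cell markers passed the filter, Cd3e and Cd3d. The T cell markers Cd3g, Cd247 and Cd2 read below the 40th percentile in all 6 arrays. Of 8 neutrophil markers 5 were on the array and 3 passed the intensity filter, Csf3r, Cxcr2 and Ptprc, the last of which marks all leukocytes. The mean of their centred log2 values (the score used for each marker list) lay between -0.19 and 0.059 in controls and between 0.0035 and 0.16 in Sox2cKO arrays. Cxcr2 differed by 0.38 from a control mean of 5.47, and its groups did not overlap (unadjusted p = 0.0368 and adjusted p = 0.999 in limma). For macrophage markers, 7 of 8 passed the filter, with a score between -0.22 and -0.013 in controls and -0.19 and 0.33 in Sox2cKO. Cd14, also a macrophage marker, read well above the filter, at 8.27 ± 0.35 and 8.60 ± 0.61 (SD, n = 3 each). The 7 Langerhans cell markers scored between 0.11 and 0.40 in controls and between -0.58 and 0.26 in Sox2cKO. Among them the class II genes read well above the filter: Cd74 differed by -1.09 from a control mean of 8.23 (unadjusted p = 0.0149 in limma), H2-Ab1 by -1.26 from 9.13 (0.00325) and H2-Eb1 by -1.01 from 8.09 (0.0325). The groups did not overlap in Cd74 and H2-Ab1, beside 5.85% of all genes tested. An unadjusted p under 0.05 in limma was found for 2.67% of all genes. None of the 3 class II genes passed the adjusted threshold. By the group means 4 of the 7 Langerhans cell markers were lower and 3 higher: Ctss by 0.32, Ptprc by 0.10 and Cd207 by 0.014. The part of other cell types in the Il1b reading was not tested, and in sorted bulk samples fewer cells of a type and less RNA per cell cannot be told apart.

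Il1rn encodes the IL-1 receptor antagonist, and its 3 probe sets gave differences of 0.076, -0.0095 and -0.0095. The probe set with the highest mean read 9.50, 8.02 and 8.67 in controls and 9.56, 8.46 and 8.39 in Sox2cKO arrays. Replicate 1 of both groups stood above the other 4 arrays, and the groups overlapped fully. The standard error of its difference of 0.076 was 0.44, with an interval from -0.95 to 1.10. Leaving out 1 array moved the difference between -0.30 and 0.46.

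The 3 IL-36 agonist genes had mean differences of both signs. Il1f9 (IL-36 gamma), an agonist gene that keratinocytes express in inflamed skin, read 10.50, 10.83 and 10.28 in controls and 10.21, 10.17 and 10.11 in Sox2cKO arrays. It was the only ligand gene whose groups did not overlap, and the gap between the lowest control and the highest Sox2cKO array was 0.070. The mean was 10.53 ± 0.28 in controls and 10.16 ± 0.05 in Sox2cKO (SD, n = 3 each). The log2 difference was thus -0.37 (standard error 0.16), or 1.30-fold, and its interval ran from -0.75 to 0.0022. Its unadjusted p was 0.0510 and its adjusted p 0.999 in limma. A two-sided exact permutation test gave p = 0.1 and cannot give less with 3 arrays a group. Among all genes 5.85% had groups that did not overlap, 2.73% higher and 3.12% lower in Sox2cKO, and 1 gene of 9 is too few to set apart from that share. Without control replicate 2, its highest array, the difference was -0.23. With the replicate block its unadjusted p was 0.0422, and all 3 same-numbered differences were below 0 (-0.29, -0.67 and -0.16). Over the alternatives with all 6 arrays and no Xist covariate, its unadjusted p in limma ran from 0.0357 (trend with robust eBayes) to 0.0573 (median centring). Whether Il1f9 fell under 0.05 before adjustment thus depended on the processing.

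Il1f6 (IL-36 alpha) read 7.76, 7.51 and 6.10 in controls and 6.84, 6.98 and 6.73 in Sox2cKO arrays. The Sox2cKO arrays were close together (SD 0.13) and lay between control replicate 3 and the other two controls (SD 0.90). The difference was -0.28 with a standard error of 0.40. Without control replicate 3 it was -0.79 with an unadjusted p of 0.0024 and an adjusted p that missed the threshold, and without control replicate 1 it was 0.044, so the sign rests on single control arrays.

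Il1f8 (IL-36 beta) read low, at 6.52, 5.07 and 5.50 in controls and 6.02, 6.29 and 5.65 in Sox2cKO arrays, against filter levels near 4.9. Control replicate 1 was its highest array and control replicates 2 and 3 its lowest. The difference was 0.29 with a standard error of 0.36. It was 0.71 without control replicate 1 and -0.021 without control replicate 2.

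Il1f5, the gene of the IL-36 receptor antagonist, had the largest mean difference of the 9 genes, 0.65, and the largest spread within groups. It read 7.49, 5.37 and 5.73 in controls and 7.50, 7.52 and 5.51 in Sox2cKO arrays. Control replicate 1 and Sox2cKO replicates 1 and 2 formed a high set, and the other 3 arrays a low set, so each group held both levels. The second probe set of Il1f5 read 5.31, 4.28 and 4.99 in controls and 5.33, 5.27 and 4.97 in Sox2cKO arrays, with the same 3 arrays highest and a difference of 0.33. The standard error of the first was 0.70, and its exact permutation p was 0.5. Without control replicate 1 the difference was 1.29, and without Sox2cKO replicate 3 it was 1.31.

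The mean score of suprabasal keratinocyte markers, genes of the layers above the basal one, divided the arrays as Il1f5 did. The score of 8 such markers (Krt1, Krt10, Ivl, Lor, Sbsn, Krtdap, Dsg1a and Dsc1) was 0.46 in control replicate 1, 0.59 and 0.52 in Sox2cKO replicates 1 and 2, and -0.60, -0.47 and -0.49 in control replicates 2 and 3 and Sox2cKO replicate 3. The 3 arrays with the higher score read 7.49 to 7.52 for Il1f5 and 6.02 to 6.52 for Il1f8, and the 3 with the lower score read 5.37 to 5.73 and 5.07 to 5.65. Both sets held arrays of both groups. The desmosome gene Dsg1a read 8.39, 6.24 and 6.95 in the controls and 8.41, 8.67 and 5.87 in the Sox2cKO arrays, and Dsc1 read 9.84, 7.74 and 7.85 and 10.13, 9.93 and 7.47. The markers did not all divide the arrays as the score did, since Sox2cKO replicate 3 read 8.04 for Ivl, 6.47 for Lor and 12.06 for Sbsn, above control replicates 2 and 3 in each. The 6 arrays fall into 2 clusters here, so no correlation over them was taken as evidence. Il1rn did not divide the arrays in this way, since Sox2cKO replicate 2 read 8.46. All 8 markers had positive differences in Sox2cKO (median 0.36), and 0 passed the adjusted threshold. Lor alone had an unadjusted p under 0.05 (0.0292 in limma), beside 2.67% of all genes tested. It was also the only one whose groups did not overlap, beside 5.85% of all genes. The part of the suprabasal markers in the Il1f5 and Il1f8 differences was not tested. Of the 7 basal markers, whose scores lay between -0.095 and 0.045 over the 6 arrays, 6 had differences between -0.07 and 0.09, and the seventh, Epcam, differed by -0.46.

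**Figure D2:**
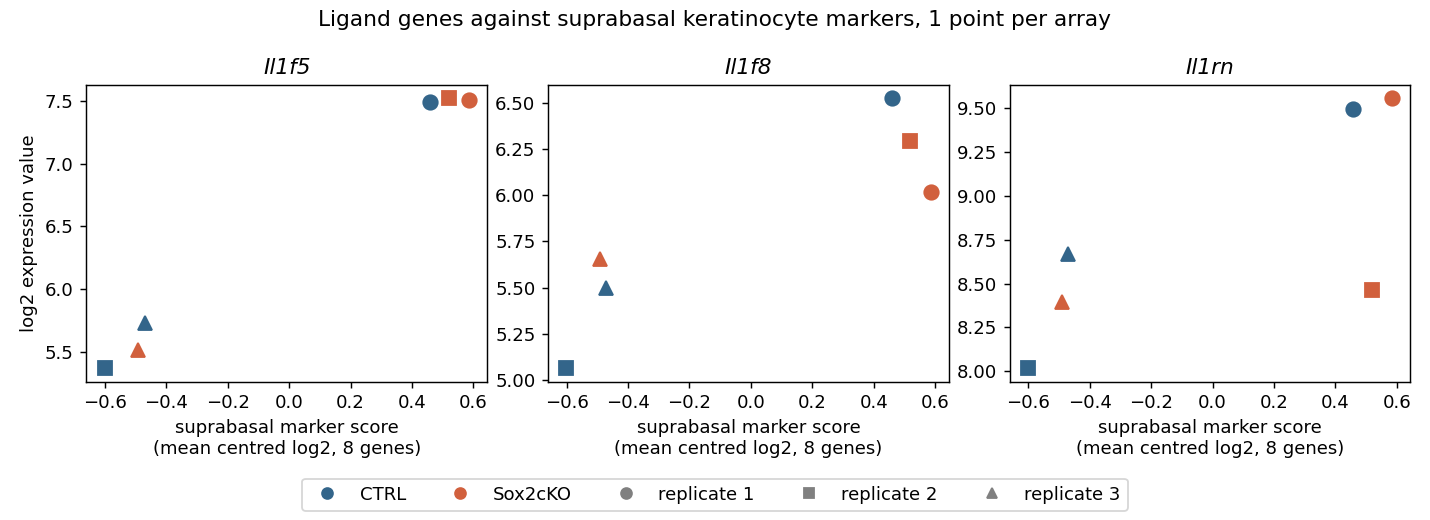
Log2 expression value of Il1f5, Il1f8 and Il1rn (vertical axes, own scale per panel) against the suprabasal marker score of the same array (horizontal axis, mean of centred log2 values of 8 genes), 1 point per array. Il1f5 and Il1f8 are high in the 3 arrays with scores of 0.46 to 0.59, whereas Il1rn reads 8.46 in 1 of them, Sox2cKO replicate 2.

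Il18, whose product awaits cleavage by caspase-1, read 8.52, 7.38 and 7.84 in controls and 7.63, 8.87 and 7.38 in Sox2cKO arrays. Sox2cKO replicate 2 was the highest array and Sox2cKO replicate 3 the lowest, so the Sox2cKO group spanned the whole range. The difference was 0.045 with a standard error of 0.43. Without Sox2cKO replicate 2 it was -0.41.

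Il33, which encodes a nuclear alarm cytokine, had the widest range of the 9 genes, 6.09-fold between its highest and lowest arrays. It read 10.75, 8.66 and 10.15 in controls and 11.27, 9.92 and 9.22 in Sox2cKO arrays. Replicate 1 of each group was its highest array. The difference was 0.28 with a standard error of 0.65, and leaving out 1 array moved it between -0.31 and 0.74. Fibroblasts and endothelium also make IL-33. The score of 8 fibroblast markers was -0.27, -0.28 and -1.16 in controls and -0.14, 0.39 and 1.46 in Sox2cKO arrays, and the array with the highest score, Sox2cKO replicate 3, had the lowest Il33 reading of its group. All 8 fibroblast markers had positive differences, with a median of 1.26. Of them 4 had an unadjusted p under 0.05 in limma, beside 2.67% of all genes tested. In 1, Pdgfrb, the groups did not overlap, beside 5.85% of all genes. As in the whole series, 0 passed the adjusted threshold, and the part of the fibroblast markers in the Il33 reading was not tested. Of 6 endothelial markers 1 passed the intensity filter, and the endothelial gene Pecam1 read below the 40th percentile in all 6 arrays.

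**Figure D3:**
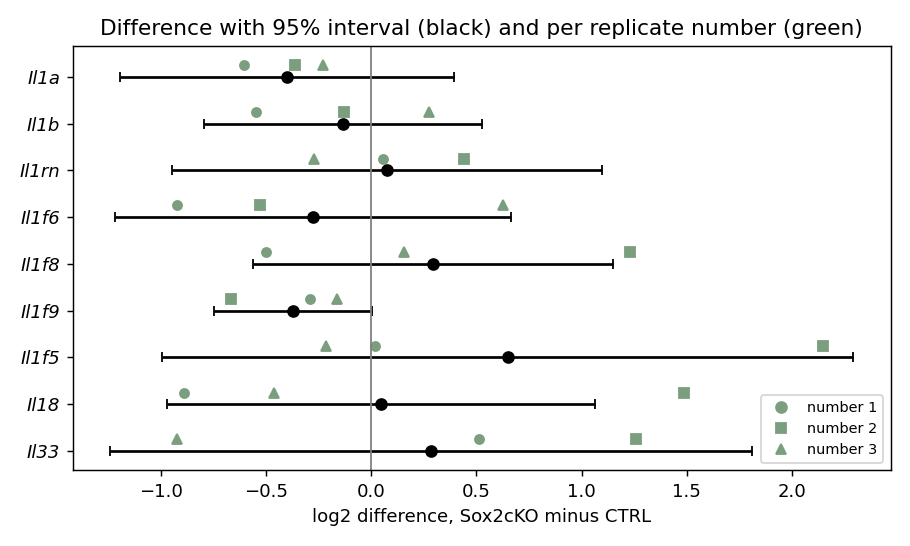
Log2 difference of each ligand gene, Sox2cKO minus control, with its 95% interval from limma (black) and the 3 differences between arrays of the same replicate number (green). Every interval holds 0, and the 3 green symbols lie on 1 side of 0 for Il1a and Il1f9 only.

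Variation within groups was large for nearly all of these genes. The median gene had a within-group SD of 0.19 on the log2 scale, whereas those of the ligand genes ran from 0.20 for Il1f9 and 0.43 for Il1b to 1.06 for Il33 and 1.14 for Il1f5. Of the 9 genes 8 were among the 10% of genes with the largest within-group SD, Il1b at the edge with 9.95% of genes above it. The exception was Il1f9, with 47.0% of genes above it. By size of the difference, 3 of the 9 genes were among the largest 10%: Il1f5, Il1a and Il1f9.

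**Figure D4:**
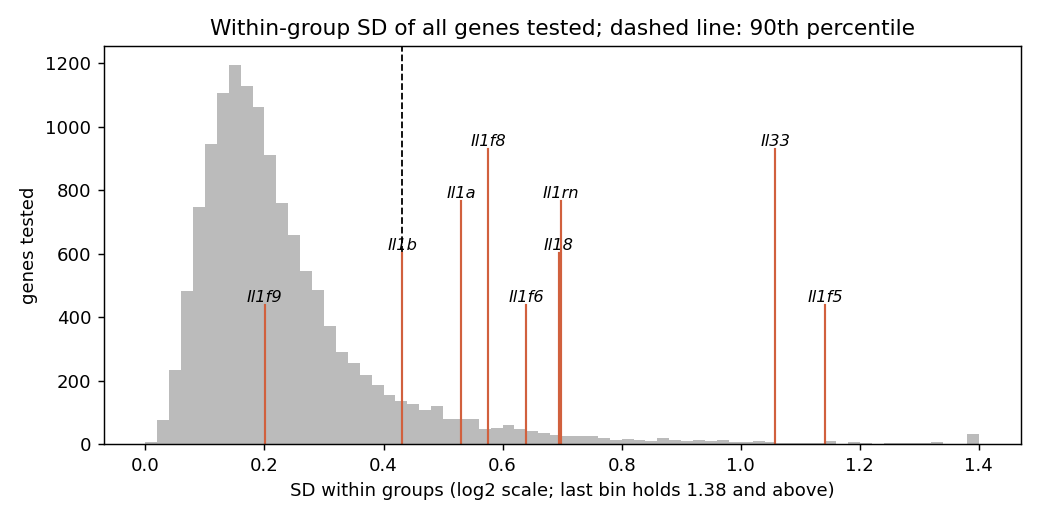
Histogram of the within-group SD (log2 scale) of all 13214 genes tested, with the 9 ligand genes as red lines and the 90th percentile as a dashed line; line heights only separate the names. Il1f9 stands at 0.20, and the other 8 genes at 0.43 or more.

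The ligand genes did not vary as 1 block. Over the 36 pairs of ligand genes Pearson's r across the 6 arrays had a median of 0.27 and ran from -0.67 (Il1b and Il33) to 0.95 (Il1rn and Il33). Il1rn and Il33 ranked the 6 arrays in the same order, and r was 0.95 over the 4 arrays left without control replicate 1 and Sox2cKO replicate 1, which lay farthest from the median of Il1rn. These are descriptions over 6 arrays that share 1 processing, and each pair is 1 of 36. On chromosome 2 the genes Il1f8, Il1f9, Il1f6, Il1f5, Il1f10 and Il1rn follow each other with no other coding gene between them. Over the 6 arrays r was -0.42 between the neighbours Il1f8 and Il1f9, 0.64 between Il1f9 and Il1f6 and 0.30 between Il1f6 and Il1f5. Il1a and Il1b, also direct neighbours, had r of -0.59. Il1f10, the remaining ligand gene of this cluster, read 5.59 ± 0.21 in controls and 5.58 ± 0.07 in Sox2cKO arrays (SD, n = 3 each), a difference of -0.0091.

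The rule took the 3 genes with the highest r over the 6 arrays, with unnamed clones left out. By it the most alike to Il1f9 were Map2k5 (0.985), Slc52a3 (0.982) and Nuf2 (0.982). Those most alike to Il1f5 were Tmem185b (0.998), Cyp4f39 (0.998) and Btbd11 (0.992). Il18 was closest to the interferon-induced GTPase gene Ifi47 (0.993), and Il1rn to Tollip (0.988), which encodes an inhibitor of IL-1 receptor signalling. Il1a was closest to Kirrel (0.992), Il33 to Eif4e (0.991), Il1b to Trabd (0.993), Il1f6 to Smn1 (0.9785) and Il1f8 to Dazap2 (0.994). With 6 arrays such values are common: 90 genes exceeded 0.95 with Il1f5, 33 with Il1f9, 56 with Il1rn and 39 with Il18.

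Against control replicate 1 alone, the control whose Xist reading matched the Sox2cKO arrays, all 9 ligand genes were lower in Sox2cKO, with a median difference of -0.62. Over all genes in the same fit the median was -0.010, and 47.3% were higher. This is the fit with the Xist reading as a covariate, which takes the spread from the other arrays. Il1a differed by -0.93, Il1f6 by -0.92, Il1rn by -0.69, Il1f5 by -0.64 and Il33 by -0.62. Control replicate 1 was the highest of the 6 arrays for Il1a, Il1f6 and Il1f8 and second for Il1rn, Il1f9, Il18 and Il33. No ligand gene passed the adjusted threshold in that fit, and it rests on 1 control array.

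Of the receptors and binding proteins of the family, 8 of 9 listed genes were tested, and 0 passed. Il1rl1, the IL-33 receptor gene, was not analysed here. The median difference was -0.058, and 0 of 8 had groups that did not overlap, beside 5.85% of all genes tested. Il1rl2, the IL-36 receptor gene, read 8.36 ± 0.21 in controls and 8.45 ± 0.38 in Sox2cKO arrays, and the shared chain gene Il1rap 7.89 ± 0.08 and 8.08 ± 0.29 (SD, n = 3 each). The IL-1 receptor gene Il1r1 differed by -0.047, Sigirr, which encodes an inhibitory receptor, by -0.069, and the IL-18 antagonist gene Il18bp by 0.021. The decoy receptor gene Il1r2 had the largest difference, -0.47, and read 8.03, 8.22 and 7.54 in controls and 7.66, 8.32 and 6.41 in Sox2cKO arrays, where replicate 3 stood low. The IL-18 receptor genes Il18r1 (-0.15) and Il18rap (-0.21) also overlapped between groups.

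Of the genes that process or release the ligands, 10 of 16 were tested, with 0 passing and a median of -0.045. Nlrp1a, Nlrp1b and Nlrc4 had no probe set annotated to them alone, and Aim2, Gsdma and Ctsg did not pass the intensity filter. Aim2 read 5.52 ± 0.85 in controls and 4.44 ± 0.38 in Sox2cKO arrays, an untested difference of -1.07, and exceeded the 40th percentile in 2 arrays. Casp1, the protease of IL-1 beta and IL-18, read 10.34 ± 0.12 in controls and 10.23 ± 0.30 in Sox2cKO arrays, and its adaptor Pycard 11.36 ± 0.15 and 11.36 ± 0.34 (SD, n = 3 each). The pore-forming Gsdmd differed by -0.19, Casp4 by -0.17, Casp8 by -0.14 and the sensor Nlrp3 by -0.088. Of the adaptors and kinases below the receptors, 10 of 11 were tested, with 0 passing and a median of 0.067. The kinase gene Map3k7 (0.27), the ubiquitin ligase gene Traf6 (0.23) and the adaptor gene Myd88 (0.16) had the largest positive differences. Tab2, which binds the MAP3K7 kinase, differed by -0.13. It was the only pathway gene of the 44 tested whose groups did not overlap, beside 5.85% of all genes tested.

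Genes that IL-1 family cytokines induce in keratinocytes were lower by the group means in 15 of 16, with a median of -0.20, where 49.4% of all genes tested were lower. None passed the adjusted threshold, and 0 had groups that did not overlap, beside 5.85% of all genes tested. An unadjusted p under 0.05 in limma was found for 1 gene, beside 2.67% of all genes tested. That gene was Lcn2, which encodes an iron-binding antimicrobial protein: it read 10.12, 11.31 and 10.24 in controls and 8.85, 10.18 and 9.24 in Sox2cKO arrays, a difference of -1.13 with a standard error of 0.42 (adjusted p = 0.999 in limma). Next by unadjusted p were the cytokine gene Csf2 (-0.62) and the neutrophil chemokine genes Cxcl2 (-0.72) and Cxcl5 (-0.91). Sox2cKO replicate 2 read lowest for Cxcl2, at 10.42 against 11.84 to 12.48 in the other arrays, and for Cxcl5, at 7.52 against 8.33 to 10.02. The score of the list was -0.51 in that array and between -0.01 and 0.23 in the other 5. Leaving out 1 array moved the median between -0.28 and -0.19. Il6 was the exception, with a difference of 0.66 and a standard error of 0.57. These genes answer to many other signals as well, and the lists were chosen with earlier results of these data known.

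**Figure D5:**
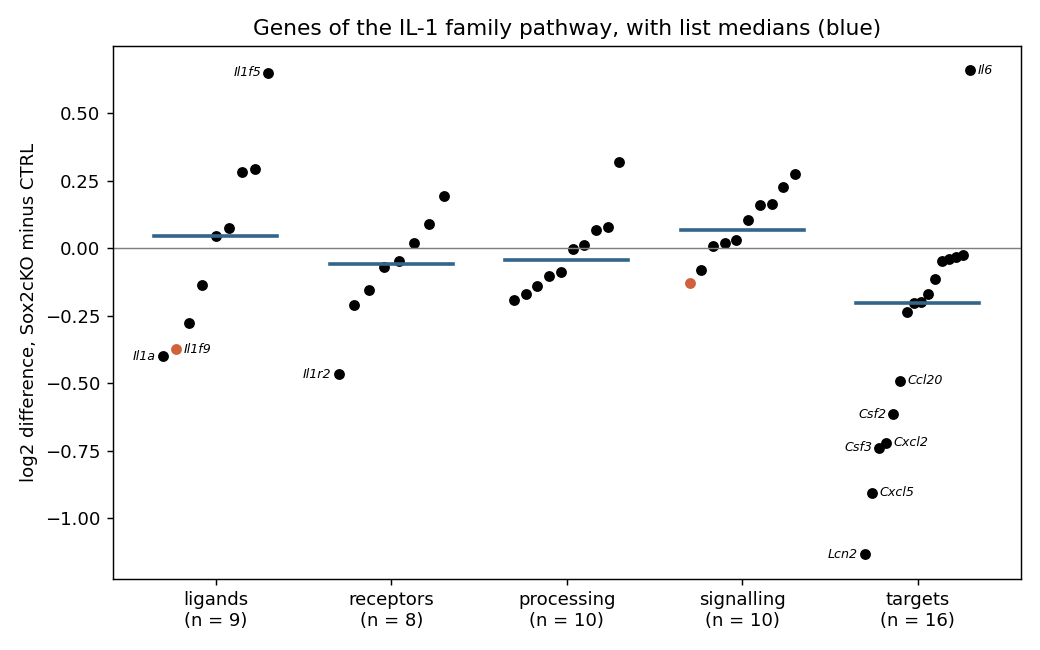
Log2 difference, Sox2cKO minus control, of each tested gene of the ligands and of the 4 lists around them, 1 point per gene sorted within its list; blue bars are list medians, red points are genes whose groups did not overlap, and names stand beside differences beyond about 0.36. The medians are 0.045 for ligands, -0.058 for receptors, -0.045 for processing, 0.067 for signalling and -0.20 for target genes.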

How the data were processed

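RNA of sorted papilloma cells (100 ng per sample) was amplified from its 3' end and hybridised to Affymetrix Mouse Genome 430 2.0 arrays, 3 per group, per the labels' protocols. The authors' deposited table gives 1 log2 value per probe set and array, with the scale read from its range (2.65 to 14.44). R 2.14.0 was named in the submitters' processing notes. How background, summarising and normalization were handled is not given in the sources used here. Low values flatten towards background.

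By the platform annotation 34945 of 45037 mouse probe sets named 1 gene, and those with several (932) or none (9160) were left out. A probe set was tested where 3 of 6 arrays exceeded the array's 40th percentile, and a gene was read by its tested probe set with the highest mean. Two-sided tests of the group difference used lmFit and eBayes of limma 3.58.1 (R 4.3.3), adjusted by Benjamini-Hochberg over 13214 genes at a threshold of 0.05. The number of arrays limits the precision. The procedure was tested on simulated data. Arrays of the same replicate number, given in the labels, had correlated deviations from their group means (0.206 to 0.288 for the 3 pairs). Other numbers gave -0.333 to 0.0635. Centring within groups pulls these values down where the same-number values are positive, so they are no separate evidence. A fit with the number as a block was therefore run too. The ligand genes, the gene lists and the tests were chosen with earlier results of these data known. Named genes are the 9 ligand genes, Il1f10, the receptors, up to 4 genes of smallest p per other list and defining markers. Genes most alike to a ligand gene are named too, 3 each for Il1f9 and Il1f5 and the closest alone for the rest. All others were named after their values were seen. Alternatives were no filter or a 60th percentile filter, the mean of probe sets, quantile normalization, median centring, 16 added before log2, trend with robust eBayes, the Xist reading as a covariate, the block and leaving out each array.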

Additional observations from a re-analysis of the deposited data

How the results depend on the processing

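In all 15 alternatives 0 ligand genes passed the adjusted threshold. With the replicate number as a block, 0 genes in all passed, and the median ligand difference stayed at 0.045. Leaving out 1 array gave 0 to 5 genes in all, the 5 (Sox2, Xist and the Y-linked Eif2s3y, Kdm5d and Uty) without control replicate 1. The Xist covariate, a fit that rests on 1 control array, turned the median ligand difference to -0.62, with all 9 ligand genes lower. Il1a and Il1f9 were lower in every alternative. Leaving out 1 array left 1 or 2 ligand genes with groups that did not overlap. The second was Il1f8 without control replicate 1 (18.0% of all genes), Il1a without control replicate 2 (10.8%), Il1f6 without control replicate 3 (13.2%) and Il1f5 without Sox2cKO replicate 3 (16.9%).

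Il1f5 kept its sign in all 6 fits that left out 1 array, between 0.24 and 1.31. The direction of the other 6 genes depended on single arrays. Leaving out 1 array moved the median ligand difference between -0.27 and 0.35, Il1b between -0.35 and 0.083, Il1rn between -0.30 and 0.46, Il1f6 between -0.79 and 0.044, Il1f8 between -0.021 and 0.71, Il18 between -0.41 and 0.35 and Il33 between -0.31 and 0.74. With the Xist covariate the median was -0.62, and Il1rn (-0.69), Il1f5 (-0.64), Il1f8 (-0.53), Il18 (-0.56) and Il33 (-0.62) turned. With the 60th percentile filter Il1f8 was not tested and the median was -0.045. Il1f8 and the second Il1f5 probe set lay closest to background.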
